A study of Drosophila melanogaster with 6 samples.

Results

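The genes described here are 47 Drosophila melanogaster genes for voltage-gated ion channels, transmitter receptors, and transmitter synthesis or vesicular transport, out of 13922 protein-coding genes on the 6 chromosome arms 2L, 2R, 3L, 3R, 4 and X. They were chosen as a list of names, and all 47 were found by symbol in the RefSeq Release 6 gene table. The question was which of them lie at genomic intervals listed for the homeodomain transcription factor Drgx in T4/T5 neurons. Intervals were counted for a gene if they overlapped its body, extended by 1 kb on both sides, by at least 1 bp. By this rule 15 of the 47 genes had an interval and 32 had none, where 10.9% of all protein-coding genes had one, and 24 different intervals lay at the 15 genes.

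The series is a Targeted DamID experiment, in which the bacterial methylase Dam, alone or fused to a DNA-binding protein, marks adenines in GATC motifs in the cells that express it. Of the 6 samples, 3 carried UAS-Dam and 3 carried UAS-Dam-DRGX, and both groups carried UAS-CD8-GFP, tubGal80ts and the driver R23G12-Gal4. Animals developed at 18 °C and were kept at 29 °C for 24 h before the brains of larvae of the third instar were dissected. DNA came from the dissected brains, so the cells represented are those in which R23G12-Gal4 drives the transgene, and their identity was not checked here because the list holds no expression values. What was available is 1 list of 2396 intervals for the series as a whole, 2394 of them on the 6 arms, each carrying a score and a false discovery rate from the authors. It names no sample, so no spread between the 3 replicates of a group, no read depth and no Dam-only background could be set beside any interval. It was taken to be the result of comparing Dam-Drgx with Dam-only samples. The scale of the score is not given in the sources used here, and it serves here only for description and for ranking within the list.

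T4 and T5 neurons detect the direction of visual motion in the fly's optic lobe. They release acetylcholine, which is made by choline acetyltransferase and loaded into vesicles by the vesicular acetylcholine transporter. Their dendrites receive acetylcholine and GABA, and T4 dendrites also receive glutamate. In flies these transmitters act on nicotinic and muscarinic receptors, on Rdl-type GABA channels and GABA-B receptors, and on the glutamate-gated chloride channel GluClalpha, among others. Voltage-gated sodium, calcium and potassium channels set how a neuron responds to these inputs. At the larval stage sampled here such neurons are being born and have not yet formed the adult circuit.

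Long genes offer more room for an interval, and the listed genes are long. Their median length was 24.0 kb (range 1288 to 138941 bp), and 29 of the 47 fell into the highest length decile of protein-coding genes, those from 14.6 kb upwards. The share of listed genes with an interval was 31.9% (Wilson 95% interval 20.4% to 46.2%, which treats genes as independent units and covers counting error only). Protein-coding genes in the same length deciles had an interval in 33.5% of cases, which corresponds to 15.7 of 47 genes, so the share in the list was 0.953 times that of its length deciles. Taking for each gene all protein-coding genes from 20% shorter to 25% longer, called genes of like length below, gave 39.4%, or 18.5 genes. With the coarser length quintiles the share was 26.1% and the ratio 1.22. The list thus lay above its background with quintiles, and below it with deciles and with genes of like length. The highest decile spans 14.6 to 1966 kb, so deciles hold length less closely than genes of like length do. The Wilson interval of the list includes all 3 length-matched shares. It is not a test, and ChAT and VAChT, which share their intervals, are not independent units. By count, the listed genes with an interval were near the number at their length deciles and below that at genes of like length. This is given as a description with no test. With a stricter list, of intervals at or above its median score or with a false discovery rate of at most 0.001, 9 of the 47 genes were left in each case (19.1%, against 20.1% and 23.6% in the same length deciles).

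The picture differed by length. Of the 6 listed genes shorter than 5 kb none had an interval, where 5.46% of all such genes did. Between 5 and 20 kb 5 of 16 had one (31.2%, against 15.5% of all genes of that length). Those 5 were nAChRbeta2 and GABA-B-R3, both counted through a flank alone, Nmdar1, VAChT and Gad1. The Nmdar1 interval also overlapped Itpr and CG43845, and VAChT shares its intervals with ChAT. Between 20 and 50 kb the count was 3 of 12 (25% against 48.4%), and from 50 kb upwards 7 of 13 (53.8% against 71.3%). The mean number of intervals per gene from 50 kb upwards was 1.08 in the list and 1.78 over all protein-coding genes. From 20 kb upwards the listed genes thus lay below all genes of that length by count, and between 5 and 20 kb above them. A wider list of 110 other channel, receptor and transmitter genes went the other way in both of the middle length classes, with an interval at 5 of 50 genes between 5 and 20 kb and at 11 of 19 (57.9%) between 20 and 50 kb. These differences were not tested.

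**Figure D1:**
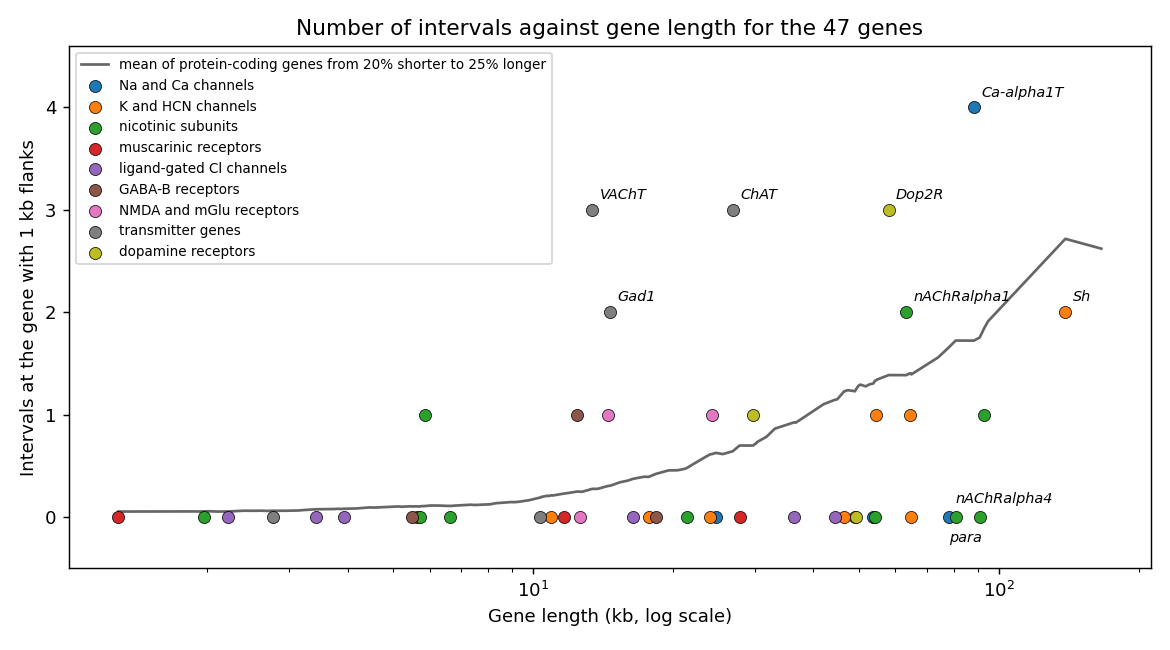
Each point is 1 of the 47 listed genes, placed by gene length in kb (log scale) and by the number of intervals at the gene with 1 kb flanks, coloured by class. The line gives the mean number at protein-coding genes from 20% shorter to 25% longer. VAChT and ChAT (3 intervals each) and Gad1 (2) stand above the line, and para and nAChRalpha4 (0 each) below it.

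Base coverage was lower at the listed genes, in a comparison not matched for length. The listed genes with their flanks spanned 1.66 Mb, of which 42.3 kb (2.54%) lay in intervals. Over all protein-coding genes with flanks 2.96% of 98.7 Mb lay in intervals, and over the 843 protein-coding genes at least as long as the median listed gene 3.93% of 48.8 Mb. The corresponding densities were 1.44 intervals per 100 kb at the listed genes, 1.74 at all protein-coding genes and 2.04 at the 843 long ones.

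Of the 5 genes that make and package transmitters, 3 had an interval, where 1.30 would be the number at the share of their length deciles. At the cholinergic locus on 3R, ChAT (choline acetyltransferase, CG12345, 18705501 to 18732344) and VAChT (the vesicular acetylcholine transporter, CG32848, 18705501 to 18718916) share their lower-coordinate end, with VAChT lying wholly within the span of ChAT. The same 3 intervals met both genes, so the pair is 1 locus counted as 2 genes.

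The first of these intervals lay on 3R at 18702074 to 18705781, with a score of 2.86 and a false discovery rate of 0.000152, and it crossed the shared gene end. The second lay inside both genes at 18708530 to 18709854 and was the highest-scoring of the 3, with a score of 3.45 and a false discovery rate of 2.26e-06. The third, at 18718032 to 18722002 with a score of 2.10, crossed the higher-coordinate end of VAChT and also overlapped the coding gene CG34283. Among 369 protein-coding genes of like length, 19 (5.15%, ChAT included) had 3 or more intervals. For VAChT it was 4 of 607 (0.659%, VAChT included).

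Gad1 (glutamic acid decarboxylase, the enzyme of GABA synthesis, CG14994) on 3L had 2 intervals inside its body of 14.7 kb, and neither overlapped another gene. One spanned 4076815 to 4079062 with a score of 3.95, which ranked at position 388 of the 2394 intervals, and a false discovery rate of 0.00198. The other, at 4081938 to 4082390 with a score of 3.38 and a false discovery rate of 3.41e-05, was the narrowest at any listed gene (453 bp). Of 581 protein-coding genes of like length, 36 (6.20%, Gad1 included) had 2 or more. Gad1 marks GABAergic neurons, and T4 and T5 neurons are not GABAergic.

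The 2 vesicular transporters of other transmitters had none. The interval nearest to VGlut (the vesicular glutamate transporter, 2L) was 7103 bp from the gene's lower-coordinate end, at 2391902 to 2393192, in CG46448. Its score of 4.25 (rank 222) was higher than that of any interval counted for a listed gene. VGAT (the vesicular GABA transporter, 2R) was 146 kb from its nearest interval.

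**Figure D2:**
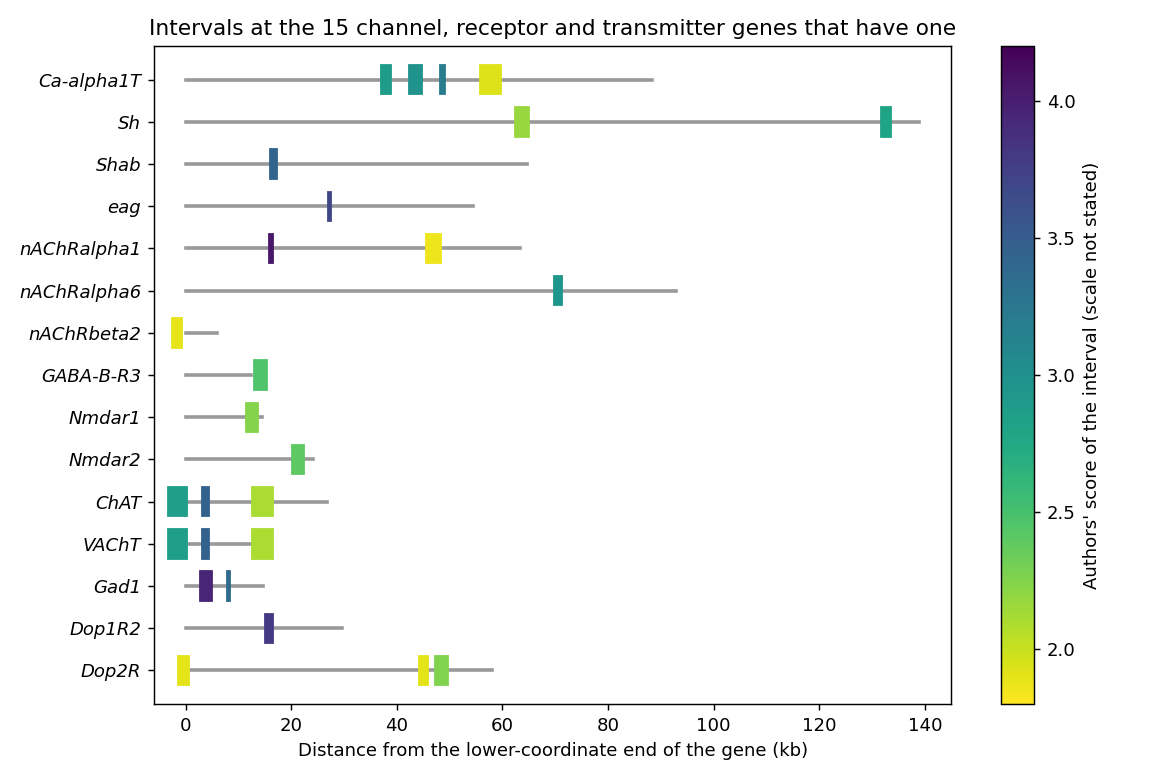
Grey lines are the 15 listed genes with an interval, drawn to scale from the lower-coordinate end of each gene (kb), and boxes are the intervals, coloured by the authors' score. The boxes of ChAT and VAChT are the same 3 intervals, and 20 of the 24 intervals lay wholly inside a listed gene.

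Among the voltage-gated sodium and calcium channel genes, 1 of 4 had an interval. The number was 1.91 at the share of their length deciles and 2.53 at that of genes of like length. Ca-alpha1T (CG15899, X, 6104085 to 6192483) encodes the T-type calcium channel, which opens at low voltage. With 4 intervals it had more than any other listed gene, and 15 of 101 protein-coding genes of like length (14.9%, Ca-alpha1T included) had at least as many. The 4 lay together in the middle of the gene, with midpoints from 43.0% to 65.3% of its length from the lower-coordinate end. They spanned 6141061 to 6143056 (score 2.88), 6146418 to 6148777 (score 2.97), 6152317 to 6153295 (score 3.20) and 6159849 to 6163783 (score 1.93).

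No interval was listed at para, which encodes the voltage-gated sodium channel behind action potentials in flies, although the gene is 78.1 kb long and 72.8% of the 125 protein-coding genes of like length had one. The nearest lay 18.9 kb away, in Arp2. Likewise cac, the presynaptic calcium channel that triggers transmitter release, had none in 53.8 kb, with the nearest interval 81.3 kb away in Ten-a. The L-type calcium channel gene Ca-alpha1D (24.7 kb long) was 53.5 kb from its nearest interval.

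Of 10 potassium and HCN channel genes, 3 had an interval, beside 4.06 at the share of their length deciles and 5.09 at that of genes of like length. The 3 were Sh, Shab and eag. Sh (CG12348, X), the A-type channel Shaker, is the longest listed gene at 139 kb. Its 2 intervals scored 2.17 (17986704 to 17989407) and 2.80 (18056070 to 18057841). The mean over the 60 protein-coding genes of like length was 2.72 intervals. Shab (CG43128, 3L), a delayed rectifier, had 1 interval at 2910982 to 2912253 with a score of 3.43, and eag (CG10952, X), the founding member of the ether-a-go-go channels, had 1 at 14982349 to 14983046 with a score of 3.69 and a false discovery rate of 0.000400. The eag interval lay at 49.9% of the gene's length.

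The potassium channel genes without an interval were Shal, Shaw, sei, slo, SK and KCNQ, together with Ih, the hyperpolarisation-activated cation channel. The calcium-activated channel slo (49.1 kb long) was 8279 bp from its nearest interval, which lay in tok at 24719874 to 24720480 on 3R with a score of 2.32. For sei, an ERG-type channel of 5625 bp, the distance was 9893 bp, and the interval lay in Rap2l on 2R at 24062928 to 24064804 with a score of 2.70. SK, another calcium-activated channel, had none in 64.9 kb, with the nearest 65.2 kb away. KCNQ (55.6 kb away), Shal (53.0 kb) and Ih (99.5 kb) were also far from any interval, while Shaw was at 10.4 kb.

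Taken as 1 group, the 14 voltage-gated and potassium channel genes had an interval in 4 cases (28.6%, Wilson 95% interval 11.7% to 54.6%), where 5.96 is the number at the share of the same length deciles and 7.62 that of genes of like length. The Wilson interval includes both shares (42.6% and 54.4%), but it is wide for 14 genes and is not a test.

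**Figure D3:**
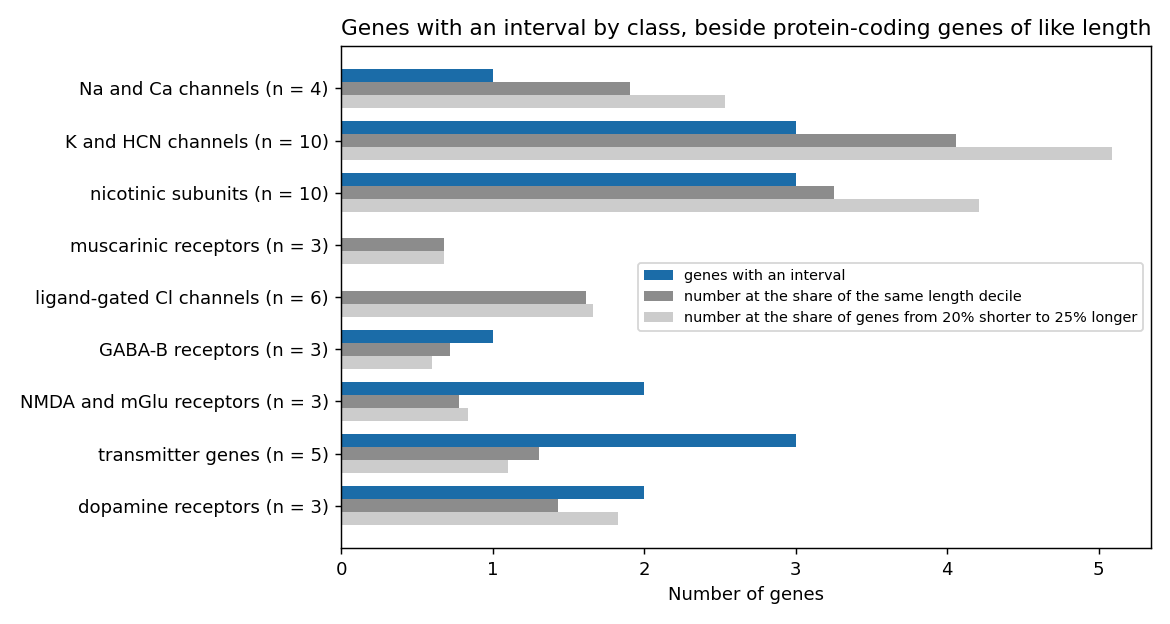
For each class of listed genes the blue bar gives the number with an interval, the dark grey bar the number at the share of protein-coding genes of the same length decile, and the light grey bar the number at the share of genes of like length (from 20% shorter to 25% longer). The transmitter genes (3 of 5) and the NMDA and metabotropic glutamate receptors (2 of 3) lie above both grey bars, and the ligand-gated chloride channels (0 of 6) and muscarinic receptors (0 of 3) have no blue bar. The bars carry no error because the list holds no replicates.

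Nicotinic receptors are the main excitatory receptors of the fly brain and are pentamers of subunits from a family of 10 genes. Of these genes, 3 had an interval, beside 3.25 at the share of their length deciles and 4.21 at that of genes of like length. The highest-scoring interval at any listed gene lay in nAChRalpha1 (CG5610, 3R), at 24409619 to 24410445, with a score of 4.05 (rank 331) and a false discovery rate of 9.84e-10. A second interval in nAChRalpha1, at 24439452 to 24442263, had the lowest score at any listed gene (1.86) and also overlapped the non-coding RNA genes lncRNA:CR45950 and lncRNA:CR43455.

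The genes nAChRalpha1, nAChRalpha2 and nAChRbeta2 lie in 1 stretch of 121 kb on 3R, which also meets the coding genes CG13616, CG31128 and DZIP1. In that stretch fell 4 intervals, a number not set beside other stretches. Beside the 2 in nAChRalpha1, one lay in the gap between nAChRalpha2 and nAChRbeta2 at 24496748 to 24498374, with a score of 3.82 and a false discovery rate of 7.44e-07. It was 5601 bp from nAChRalpha2 and overlapped no annotated gene. The last, at 24506600 to 24508488 with a score of 1.89, was 740 bp from the lower-coordinate end of nAChRbeta2 and was counted for that gene through its flank alone. The high and low scores alternated along the stretch.

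The third nicotinic gene, nAChRalpha6 (CG4128, 2L, 92.9 kb long), which encodes a subunit targeted by spinosyn insecticides, had 1 interval at 9863166 to 9864544. Its score was 2.94 and its false discovery rate of 0.00883 was the highest value in the whole list. Among the subunits without an interval, nAChRalpha3 (91.0 kb), nAChRalpha4 (80.8 kb) and nAChRalpha5 (54.2 kb) are long genes. The share with an interval among genes of like length was 70.1%, 73.2% and 69.1%. The nearest interval to nAChRalpha4 was 257 kb away, the greatest distance in the list. By contrast nAChRalpha7 was 5191 bp from an interval in kek5 on X, at 19353638 to 19355509, with a score of 4.31 (rank 196). The short genes nAChRbeta1 and nAChRbeta3 were 71514 and 23004 bp from theirs.

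The muscarinic receptors, which act through G proteins, had no interval at any of the 3 genes, with distances of 67.8 kb for mAChR-A, 26.2 kb for mAChR-B and 21.3 kb for mAChR-C. At the share of their length deciles the number would be 0.675, so a count of 0 carries little information.

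No interval was listed at any of the 6 ligand-gated chloride channel genes, beside 1.62 at the share of their length deciles, and the Wilson interval of 0 of 6 reaches 39.0%. These genes encode the GABA channel subunits Rdl, Grd and Lcch3, the glutamate-gated channel GluClalpha, and the histamine-gated channels ort and HisCl1. Of all protein-coding genes of any length, 19.9% lay at or within 5 kb of an interval and 30.3% at or within 10 kb. Of the 6 chloride channel genes, 4 had an interval between 5 and 10 kb away. For Rdl it lay on 3L at 9187952 to 9189765, 5803 bp beyond the higher-coordinate end, with a score of 3.18 and a false discovery rate of 2.91e-06. It overlapped no annotated gene.

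GluClalpha and ort lie in 1 stretch of 115 kb on 3R, with 5 intervals between them, a number not set beside other stretches. The one nearest to GluClalpha, at 19723817 to 19725063 with a score of 2.34, was 5652 bp from the gene and overlapped no annotated gene. The other 4 lay in Naam, which stands between them, and the closest to ort was 8239 bp away, at 19671911 to 19673530, with a score of 3.82.

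HisCl1 was 6401 bp from an interval on 3R at 11779645 to 11780775, in the non-coding RNA gene lncRNA:CR45595. Its score of 5.25 was number 16 among the 2394 and its false discovery rate was 2.10e-21. It was the highest-scoring of the intervals nearest to the 32 genes that had none. Lcch3 and Grd were 13.3 and 62.8 kb from theirs.

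**Figure D4:**
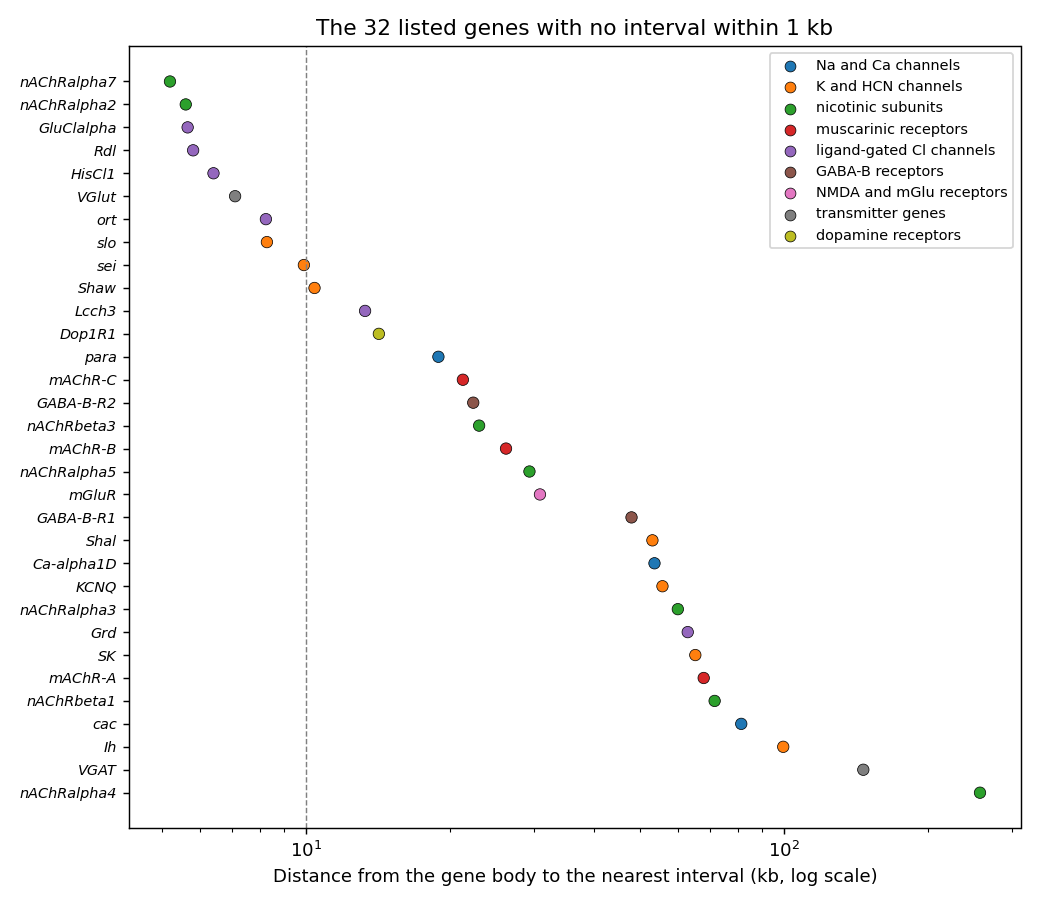
The 32 listed genes with no interval within 1 kb are placed by the distance from the gene body to the nearest interval (kb, log scale), coloured by class, with a dashed line at 10 kb. Distances run from 5.19 kb (nAChRalpha7) to 257 kb (nAChRalpha4), and 9 genes, 4 of them ligand-gated chloride channels, lie within 10 kb. Of all protein-coding genes, those with an interval included, 30.3% lie within 10 kb of one.

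The 1 kb flank made little difference in this list. Intervals met the body of 13 genes, and nAChRbeta2 (740 bp) and GABA-B-R3 (498 bp) were added by the flank. No further gene was reached up to 5 kb, and 9 more were reached between 5 and 10 kb, which brought the count to 24 of 47 (51.1%, against 30.3% of all protein-coding genes of any length). The 32 genes without an interval were a median of 24.6 kb from one, and the 12410 protein-coding genes without an interval a median of 25.9 kb. Whether an interval outside a gene acts on it was not analysed here.

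GABA-B receptors are G protein-coupled receptors for GABA. Of the 3 genes, 1 had an interval, beside 0.719 at the share of their length deciles. It was GABA-B-R3 (CG3022, 2L), and the interval lay outside the body at 762897 to 765320, with a score of 2.46 and a false discovery rate of 5.26e-05. GABA-B-R1 was 47.9 kb and GABA-B-R2 22.4 kb from the nearest.

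Both genes of the NMDA receptor, a glutamate-gated cation channel, had 1 interval. With mGluR this made 2 of 3 glutamate receptor genes, beside 0.776 at the share of their length deciles and 0.839 at that of genes of like length. Of protein-coding genes of like length, 23.2% had an interval for Nmdar1 and 40.3% for Nmdar2. The one at Nmdar1 (CG2902, 3R) spanned 5520324 to 5522485 with a score of 2.25, and it also overlapped the bodies of Itpr, the inositol trisphosphate receptor gene, and CG43845. At Nmdar2 (CG33513, X) the interval spanned 1503786 to 1505977 with a score of 2.40 and overlapped inc as well. Neither NMDA interval can be given to the receptor gene alone, and neither was left in the stricter lists. The metabotropic receptor gene mGluR, the only listed gene on arm 4, was 30.8 kb from its nearest interval.

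Dopamine receptors had an interval at 2 of 3 genes, beside 1.43 at the share of their length deciles and 1.83 at that of genes of like length. Dop1R2 (CG18741, 3R) had 1 at 29645269 to 29646784, inside the body and away from other coding genes, with a score of 3.79 (rank 486) and a false discovery rate of 1.91e-05. Dop2R (CG33517, X) had 3, all with scores below the list's median of 2.83. They spanned 20003150 to 20005248 across the gene's lower-coordinate end (score 1.90), 20048863 to 20050533 (score 1.90) and 20051976 to 20054346 (score 2.26), the last also overlapping CG9570. Of 189 protein-coding genes of like length, 34 (18.0%, Dop2R included) had 3 or more. Dop1R1, the other D1-like receptor gene, had none in 49.4 kb, and its nearest interval, 14.2 kb away in CG9624, ranked at position 2390 of 2394 with a score of 1.44.

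The 24 intervals at listed genes were ordinary in score. Their median was 2.83 (quartiles 2.15 and 3.39, range 1.86 to 4.05), and the median of the whole list was also 2.83 (quartiles 2.31 and 3.62, range 1.24 to 6.47). At or above the list's median were 12 of the 24. The best ranks were 331 in nAChRalpha1, 388 in Gad1 and 486 in Dop1R2. Narrow intervals had higher scores than wide ones in the list (medians of 3.55 and 2.42 in the narrowest and the widest quartile), so each was also set beside the median of its own quartile of width, and 11 of 24 lay above it. The listed intervals were wider, with a median width of 2048 bp against 1617 bp. Their median false discovery rate was 0.00138, against 0.000267 in the whole list.

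**Figure D5:**
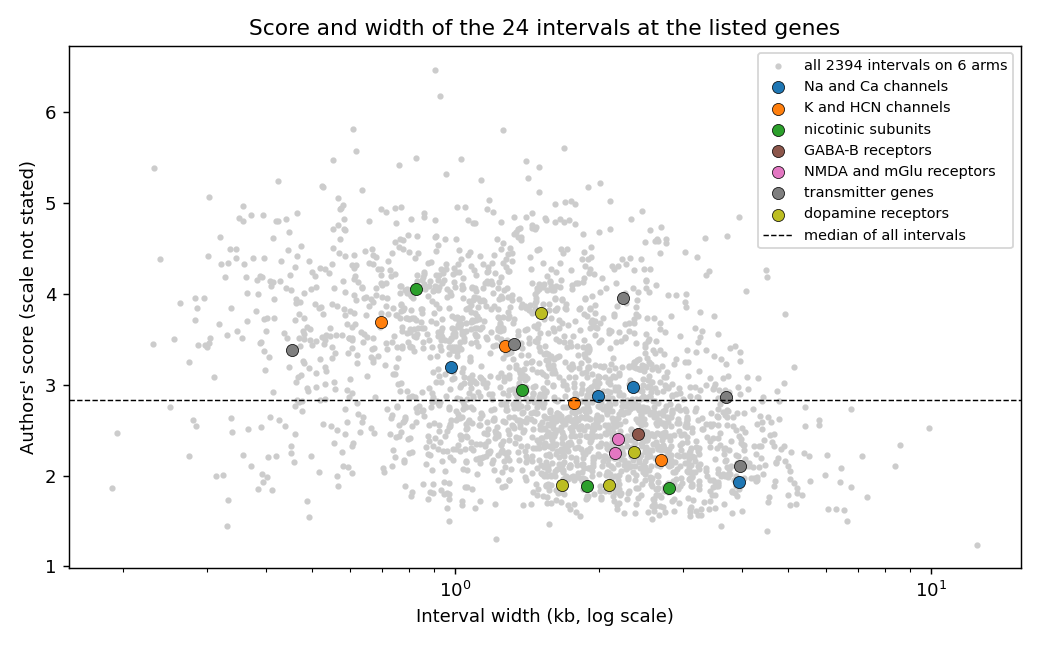
Score (scale not stated) is plotted against interval width (kb, log scale) for all 2394 intervals on the 6 arms (grey) and for the 24 at listed genes, coloured by class, with the 3 intervals shared by ChAT and VAChT drawn once. The dashed line is the median score of all intervals, 2.83, and 12 of the 24 lie on or above it.

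Most of these intervals lay inside the listed genes, whose median length is 24.0 kb. Of the 24, 20 were wholly inside a listed gene, 2 crossed a gene end and 2 were in a flank alone, counting the interval at the end of VAChT as inside ChAT. The midpoint was more than 5 kb from both gene ends in 16 of 24. Long genes leave more room for such positions. The same counts were not made for intervals at other genes, so no trait of the listed genes can be read from them. In 6 of the 24 the interval also overlapped the body of another protein-coding gene, the 3 at the cholinergic locus included. The gene table has neither strand nor exons, so start sites, exons, introns and UTRs were not analysed here, and neither were GATC sites or motifs.

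By arm, an interval was found at 6 of 14 listed genes on 3R, 5 of 12 on X, 2 of 8 on 2L, 2 of 7 on 3L, 0 of 5 on 2R and at none on arm 4. The numbers at the share of their length deciles were 4.03 on 3R, 4.88 on X, 2.41 on 2L, 3.01 on 3L, 1.2 on 2R and 0.149 on arm 4.

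The wider list of 110 genes was counted by the same rule. An interval was found at 20 of them (18.2%, Wilson 95% interval 12.1% to 26.4%), where genes of the same length deciles gave 21.0%. The class with most was that of the other amine receptors, with 7 of 14 beside 5.36 at the share of their length deciles. These were the octopamine receptors Oamb, Octbeta1R, Octbeta2R and Octalpha2R and the serotonin receptors 5-HT2A, 5-HT2B and 5-HT7, and 5-HT7 had 4 intervals with scores from 2.09 to 2.92. The class of auxiliary subunits of voltage-gated channels also held the channel genes NaCP60E and na. Of its 15 genes, 4 had an interval, beside 4.63 at the share of their length deciles. They were tipE, Teh1, Teh2 and Slob, with tipE and Teh2 meeting the same interval.

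Other ionotropic glutamate and cys-loop receptors had an interval at 2 of 17 genes (GluRIB and pHCl-1), beside 2.36 at the share of their length deciles. Other genes of transmitter synthesis, transport and breakdown had one at 3 of 21 (Tbh, Eaat1 and Gs1), beside 3.27. Among other potassium channels it was 1 of 11 (SLO2). The number was 2.59 at the share of their length deciles and 3.06 at that of genes of like length. Among TRP channels it was 1 of 16 (Trpm), beside 2.34 at the share of their length deciles. Innexins had 1 of 8 (ogre), beside 1.36, and chloride channels 1 of 8 (Best1), beside 1.20. The Best1 interval, on 3R at 10168658 to 10169276, had a score of 4.32, which was the highest at any gene of the wider list. Eaat1, the glial glutamate transporter, had one on 2L at 9337045 to 9338146 with a score of 4.03. In this wider list, as in the 47 genes, the share with an interval did not exceed that of genes of the same length deciles.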

How the data were processed

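The authors deposited 1 list of 2396 intervals for the 6 samples, with a score per interval and a false discovery rate written as text. The score has 2 decimals, and its computation, the peak caller, any filtering and whether replicates were merged are not given in the sources used here. The genome build is BDGP6, per the submitters' processing notes, and genes came from the RefSeq table of Release 6 (start, end and biotype, without strand, exons or sequence). Starts were converted to 1-based positions by adding 1. All 47 listed genes and 110 others matched by symbol.

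Genes met intervals by at least 1 bp within the body and 1 kb flanks. Shares were set beside those of all 13922 protein-coding genes, in 10 length bins and among genes from 20% shorter to 25% longer, the listed genes included. No test was made, since the list names no sample. Every listed gene was named. The listed genes and the wider list were chosen with earlier results of these data known. The software was Python 3.11.15 with pandas 2.3.3, numpy 2.4.6, scipy 1.17.1 and matplotlib 3.10.9. Alternatives changed the score, the false discovery rate, the flank, the overlap rule, joining and the length background. Planned motif counts were not made, for want of sequence.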

Additional observations from a re-analysis of the deposited data

How the results depend on the processing

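The share of listed genes with an interval was divided by that of the same length deciles, unless the length background itself was changed. This ratio ranged from 0.797 (5 kb flanks) to 1.22 (length quintiles) and was above 1 with quintiles only, of the 11 alternatives run. With intervals at or above the list's median score, 9 listed genes, 12 intervals and 10 genes of the wider list were left, with 0 GABA-B, 0 NMDA and metabotropic glutamate and 1 dopamine receptor gene. With a false discovery rate of at most 0.001, the numbers were 9 listed genes, 11 intervals and 13 genes of the wider list, with 1 potassium channel, 1 nicotinic and 0 NMDA and metabotropic glutamate receptor genes. Over all protein-coding genes the share with an interval was 5.92% at that score limit and 6.70% at that false discovery rate. The 9 listed genes differ: Ca-alpha1T, eag, nAChRalpha1, ChAT, VAChT, Gad1 and Dop1R2 stood in both. Gene bodies alone, interval midpoints, and at least 50% of the interval inside each removed the GABA-B gene (0). Flanks of 5 kb raised the wider list to 31 genes. The share of all protein-coding genes with an interval rose from 10.9% to 19.9% at that setting. Leaving out intervals that overlap another coding gene, an alternative chosen after seeing the data, left 0 NMDA and metabotropic glutamate receptor genes and 1 transmitter gene, because ChAT and VAChT overlap each other. Counting these 2 as 1 locus, also chosen afterwards, gave 14 genes and a ratio of 0.898. At the 15 genes with an interval, the number of intervals moved by over 1.5 times in 30 of 120 cases. What causes these shifts was not tested. No paired analysis was possible because the list names no sample, and for the same reason no replicate could be left out. Read depth, which would limit every interval, was not analysed here.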
